A study of Mus musculus with 12 samples.

Results

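Untransfected cultures of dissociated dorsal root ganglion (DRG) cells of the mouse were described across genes in 4 RNA sequencing libraries, chosen by their label as untransfected, out of 12 libraries in the series. The 8 other libraries came from cultures given an antisense oligonucleotide (ASO, a short synthetic strand that pairs with a chosen RNA) at 50 nM. Of those, 4 received a mix directed at GI-SINE RNAs, transcripts of short interspersed repeats, and 4 received a control ASO. They entered no value given here. All cultures came from C57/Bl6 wild-type mice, so the 4 described libraries carry no transgene, deletion or oligonucleotide. By the series' design text, a replicate number stands for 1 mouse, whose culture was split over the 3 conditions. Mouse, culture and library preparation therefore cannot be told apart in the spread between these 4 libraries. The sources used here do not state age, sex or days in culture.

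The DRG holds the cell bodies of the sensory neurons of the body and limbs. Its neurons fall into nociceptors, many of which release peptides such as calcitonin gene-related peptide, and into larger neurons with myelinated axons that sense touch and limb position. Satellite glia wrap the cell bodies, Schwann cells wrap the axons, and fibroblasts, mural cells, endothelial cells and macrophages fill the rest of the ganglion. Taking the ganglion apart for culture cuts every axon, and injured sensory neurons are known to switch on a set of transcription factors and growth genes.

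Total counts were 22668448, 18822871, 16971091 and 22272121 in mice 1 to 4. Between 15.7% and 18.4% of each library came from 3 loci to which ribosomal RNA reads align (Gm23935, Gm26917 and Gm42418). Levels are given as TPM, computed from the deposited counts by dividing each by the gene's exon length and scaling to the same total in each library, leaving out those 3 loci. Values over several mice are listed in the order of mice 1 to 4, and errors are SD over 4 libraries. The library of mouse 4 stood apart from the other 3. In a principal component analysis of log2 CPM (counts scaled to library size), the first component held 59.6% of the variance. On it this library lay at 32.5, and the libraries of mice 1 to 3 lay at -11.9, -9.07 and -11.5. The endothelial sum, the count of variable genes and the common dispersion are given with and without it. All 4 libraries had the Y-linked gene Ddx3y, at 28.7 to 34.1 TPM, and at most 0.0795 TPM of Xist, the RNA that coats the inactive X chromosome.

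Transcripts of actin and of the neuronal cytoskeleton led the messenger RNA of these cultures. Of 40393 genes in the TPM total, 16191 (40.1%) had a mean of at least 1 TPM, 2109 had at least 100 TPM and 81 had at least 1000 TPM. No count was found in any of the 4 libraries for 13237 genes. Among protein-coding genes, 13327 of 21652 (61.6%) reached 1 TPM. The 100 most abundant genes held 20.2 ± 0.660% of TPM (n = 4), and between 814 and 928 genes held 50% of it.

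Rpph1, the RNA of ribonuclease P, had the highest mean at 20111 ± 4028 TPM. Rpph1 (319 bases) and the signal recognition particle RNAs Rn7s1 and Rn7s2 (300 bases each) are short structured RNAs. Their lengths lie at or near the minimum of 300 bases used here, so their TPM is uncertain. The mitochondrial ribosomal RNAs mt-Rnr2 and mt-Rnr1 averaged 7615 and 5682 TPM. Actb, beta-actin, led the protein-coding genes with 5538, 5336, 5510.03 and 6379.5 TPM, and the neuronal beta-tubulin gene Tubb3 followed with 5384, 4924, 4849.6 and 3729 TPM. Tubb3 (ENSMUSG00000062380, chr8:123411424-123422015, GRCm38) was thus the fifth gene of all by mean level, and it was lowest in mouse 4. Next came Tuba1a, an alpha-tubulin of growing neurons (4385 ± 308 TPM), Uchl1, a neuronal deubiquitinase (4133 ± 303 TPM), mt-Co1, a cytochrome oxidase subunit (3833 ± 466 TPM), Prph, the peripheral neuron intermediate filament peripherin (3332 ± 281 TPM), and Sncg, gamma-synuclein (3209 ± 297 TPM). The other protein-coding genes among the 25 most abundant were Aldoa, Eef1a1, Hsp90ab1, Anxa5, Ywhag, Sqstm1, Eef2, Psap, Ftl1 and Srxn1, with means between 2254 and 3039.96 TPM. They take part in glycolysis, translation, protein folding, lysosomal breakdown, iron storage and the oxidative stress response. The nuclear RNA Malat1 averaged 2918 TPM.

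Protein-coding genes held 85.6 ± 0.784% of TPM. Processed pseudogenes, copies of messenger RNAs in the genome, held 7.98 ± 0.204%. The pseudogenes Gm12715 and Tpt1-ps3 averaged 2809 and 2702 TPM. Reads of a gene and its near-identical copy can be split by the counting, so the levels of pseudogenes, of ribosomal protein genes and of other genes with such copies are uncertain.

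**Figure D1:**
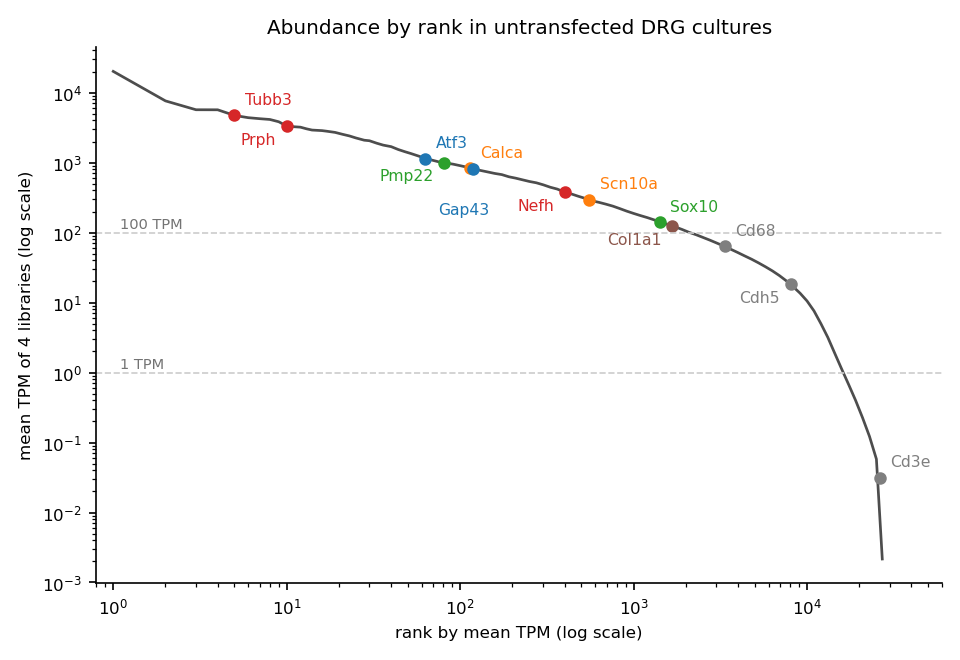
Mean TPM of each gene (vertical axis, log scale) against its rank by mean TPM (horizontal axis, log scale) over the 4 untransfected libraries, with named genes as points: neuronal (red), nociceptor (orange), injury and growth (blue), glial (green), fibroblast (brown), and macrophage, endothelial and T cell (grey). Tubb3 and Prph lie at ranks 5 and 10, Atf3 at rank 63, Sox10 and Col1a1 near the line of 100 TPM at ranks 1419 and 1670, and the T cell gene Cd3e lies near the end of the curve.

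Pan-neuronal genes were abundant in all 4 libraries. All 20 pan-neuronal genes reached 10 TPM, and their levels summed to 24054, 23103, 23689.9 and 19061 TPM, 2.25% of all TPM. The neurofilament light chain gene Nefl had 1962, 1809, 1819 and 1472 TPM. Its partners Nefh (heavy chain, chr11:4938754-4948064) and Nefm (medium chain) averaged 379 ± 41.5 and 337 ± 38.1 TPM. Peripherin is the filament of small neurons and Nefh that of large ones, and Prph (chr15:99055174-99058978) exceeded Nefh in every library, by a ratio of 8.79, 8.94, 8.40 and 9.14. The synaptic genes Syn1 (synapsin), Snap25 (a fusion protein of vesicles) and Syt1 (synaptotagmin, the calcium sensor of release) averaged 673 ± 69.4, 184 ± 14.6 and 89.8 ± 7.01 TPM. Rbfox3, the splicing factor NeuN, had 121, 108, 114 and 121 TPM, with the 4 cultures close together.

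Avil, which encodes advillin, an actin-binding protein of sensory neurons, had 1481, 1535, 1472 and 562 TPM, so mouse 4 lay far below the rest. The gene overlaps Tsfm on the opposite strand, and whether the counting used strand is not stated in the sources used here. Other neuronal genes were also low in mouse 4: 16 of the 20 were lowest in mouse 4 on CPM scaled by TMM (trimmed mean of M values), where 32.7% of all genes at 1 TPM or more were lowest in it. In bulk RNA, fewer cells of a type and less RNA per cell cannot be told apart.

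Glial genes were present below the neuronal list: the ratio of pan-neuronal to Schwann cell and myelin TPM was 13.6, 12.3, 12.4 and 8.42. Such ratios, here and for the fibroblast and endothelial lists below, are between lists of different genes and are not ratios of cell numbers. The Schwann cell and myelin list summed to 1772, 1874, 1908 and 2264 TPM, with 20 of 22 genes at 1 TPM or more. Pmp22, a peripheral myelin protein also made by other cells, supplied 51.2% of that sum at 958, 992, 1057 and 999 TPM. S100b, a calcium-binding protein of glia, averaged 240.2 ± 26.9 TPM. Sox10 (chr15:79154908-79165240), the transcription factor that defines the glia of the peripheral nervous system, had 135, 127, 108 and 198 TPM and was highest in mouse 4. Mbp, myelin basic protein, was lower, with 38.7, 34.8, 33.8 and 75.7 TPM. It was highest in mouse 4, as was Prx (periaxin), with 14.1, 13.6, 14.7 and 51.03 TPM. Mag, a late myelin gene, stayed between 0.0528 and 0.481 TPM, and Cldn19, a junction gene of myelin, had 0.404, 0.597, 0.602 and 3.93 TPM. On TMM-scaled CPM, 17 of the 20 detected genes of the list were highest in mouse 4, where 34.6% of all genes at 1 TPM or more were.

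Markers of immature or repair Schwann cells summed to 1491 to 1659 TPM. Ncam1 (496 ± 56.5 TPM) and L1cam (459 ± 45.6 TPM), adhesion molecules that neurons also make, led them, followed by the neurotrophin receptor Ngfr (386 ± 29.4 TPM). The more glial members were lower. Sox2, a factor of immature Schwann cells, had 42.3, 40.7, 34.1 and 53.6 TPM, Gdnf, a growth factor of repair cells, had 20.1, 19.1, 17.9 and 28.9 TPM, and the filament gene Gfap stayed between 0.207 and 0.845 TPM.

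The satellite glia list summed to 1324, 1446, 1270.4 and 1078 TPM. Glul, glutamine synthetase, had 626, 602, 555 and 332 TPM and was lowest in mouse 4. Apoe, the lipid carrier of glia and macrophages, had 337, 459, 349.6 and 282 TPM. It too was lowest in mouse 4. By TPM, 7 of the 11 detected genes were highest there and 3 lowest, beside 48.2% and 21.3% of all genes at 1 TPM or more. On TMM-scaled CPM the counts were 6 and 3, beside 34.6% and 32.7% of all genes. The more selective satellite cell genes were lower. Fabp7, a fatty acid binding protein, averaged 17.3 ± 4.06 TPM. Kcnj10, the inward rectifier potassium channel of satellite glia, had 7.76, 10.1, 8.34 and 11.8 TPM and the gap junction gene Gja1 had 7.15, 7.92, 6.73 and 11.3 TPM, both highest in mouse 4, and the glutamate transporter gene Slc1a3 stayed between 0.434 and 0.893 TPM.

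Fibroblast genes were detected (18 of 20) and summed to 677, 753, 649 and 994 TPM. The type V collagen chain gene Col5a2 had 179.7, 153, 147 and 305 TPM. Col1a1 (chr11:94936224-94953042) and Col1a2, the 2 chains of type I collagen, had 126, 135, 116 and 121 TPM and 107, 110.1, 106 and 153 TPM. Col1a1 thus varied little, and mouse 4 lay inside the range of the other mice. Genes of resting fibroblasts were lower: Dcn, the proteoglycan decorin, averaged 14.4 ± 3.36 TPM, Pdgfra, a growth factor receptor, averaged 8.11 ± 1.04 TPM, and Pi16 and Dpt, markers of adventitial fibroblasts, averaged 1.43 and 0.426 TPM. Across the list, the ratio of pan-neuronal to fibroblast TPM was 35.5, 30.7, 36.5 and 19.2.

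Mural cell genes summed to 965, 751, 909.6 and 1400.2 TPM. Tagln, a contractile protein also made by activated fibroblasts, had 414, 282, 353 and 768 TPM. Acta2, smooth muscle actin, had 31.2, 21.3, 34.6 and 109 TPM, while Rgs5, a pericyte gene, had 116, 96.03, 144 and 42.98 TPM. Mouse 4 was thus highest for Tagln and Acta2 and lowest for Rgs5. The mature smooth muscle genes Myh11 and Cnn1 stayed at or under 2.01 TPM.

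The endothelial list was the one whose sum differed most between cultures, with a CV (SD over mean) of 84.9%. It summed to 56.4, 72.001, 52.5 and 237 TPM, and all 12 members were highest in mouse 4. On this scale 48.2% of all genes at 1 TPM or more were highest in that library, and on TMM-scaled CPM 34.6%. Cdh5, the cadherin of endothelial junctions, had 7.68, 12.5, 7.53 and 45.2 TPM. Pecam1, an adhesion protein of the vessel wall, had 3.63, 5.60, 4.44 and 29.5 TPM, and Vwf, von Willebrand factor, had 2.05, 2.96, 1.70 and 16.04 TPM. Over mice 1 to 3 the list summed to 52.5 to 72.001 TPM. The ratio of pan-neuronal to endothelial TPM was 427, 321, 451 and 80.4.

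Macrophage genes summed to 91.8, 174, 134 and 165 TPM, most of it from the lysosomal genes Cd68 (49.5, 65.04, 72.2 and 66.4 TPM) and Lyz2 (22.1, 62.7, 34.7 and 49.5 TPM), which other cells can also express. The complement gene C1qa averaged 5.63 ± 1.95 TPM, the receptor gene Csf1r 3.51 ± 0.724 TPM and the adhesion receptor gene Adgre1 1.44 ± 0.761 TPM. Mouse 1 had the lowest level for 9 of the 12 detected macrophage genes on TMM-scaled CPM, where 23.8% of all genes at 1 TPM or more were lowest in it. Other leukocytes left little trace: 3 of 12 genes reached 1 TPM, led by the neutrophil gene S100a8 at 4.34, 7.34, 2.06 and 1.57 TPM, and the T cell gene Cd3e had a count only in mouse 2. Genes of muscle, red blood cells, fat, melanocytes and the central nervous system summed to 14.2 to 17.4 TPM over 18 genes, of which Acta1 and Aldh1l1 reached 1 TPM. Mog, a myelin gene of oligodendrocytes, Myog and Pax7, factors of muscle cells, and Dct, a melanocyte gene, had no count, which allows up to 0.502, 0.573, 0.146 and 0.145 TPM in the shallowest library (3 counts, counting error only).

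**Figure D2:**
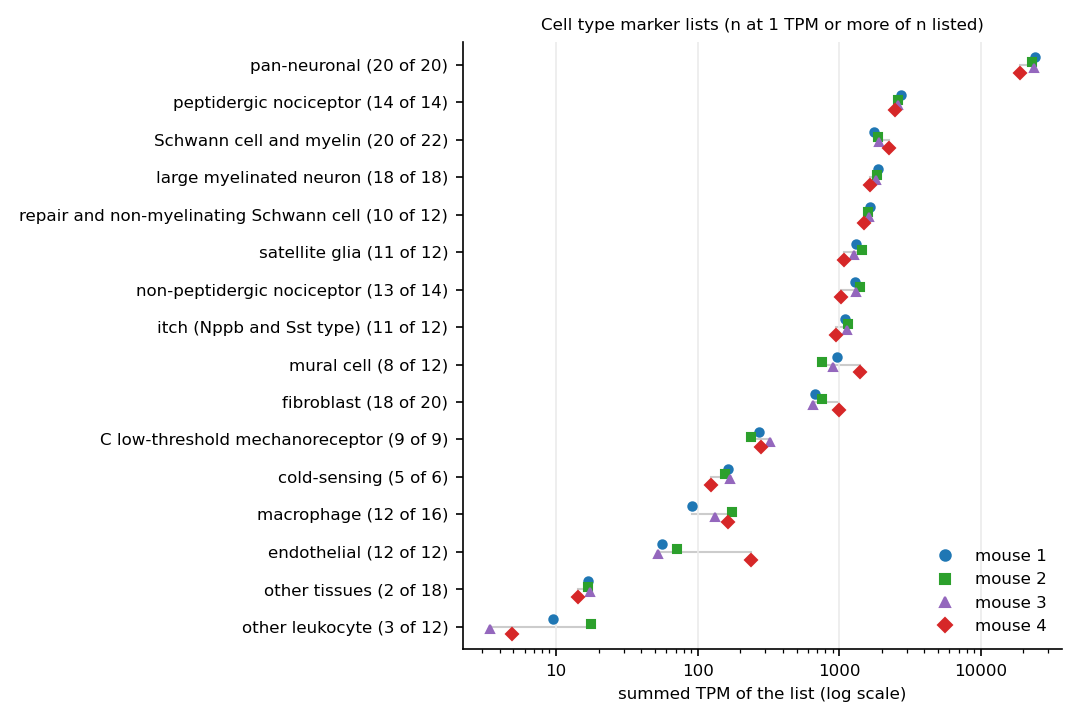
Summed TPM (log scale) of each cell type marker list in the 4 untransfected libraries, 1 point per mouse, with the number of members at 1 TPM or more; the grey line joins the lowest and highest library. The pan-neuronal list lies between 19061 and 24054 TPM, and the endothelial list reaches 237 TPM in mouse 4, above the 52.5 to 72.0 TPM of mice 1 to 3.

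Markers of every listed class of sensory neuron were found. All 14 peptidergic nociceptor genes reached 1 TPM, and they summed to 2712, 2584, 2598 and 2459.6 TPM. Gfra3, the receptor of artemin, had 528, 457, 433 and 502 TPM, and was highest in mouse 1. Ntrk2, the receptor of brain-derived neurotrophic factor, averaged 13.2 ± 2.10 TPM, and Ntrk3, a neurotrophin receptor of proprioceptors, averaged 19.01 ± 2.05 TPM.

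The non-peptidergic nociceptor list summed to 1292, 1407, 1323 and 1038 TPM with 13 of 14 genes at 1 TPM or more. P2rx3, an ATP-gated channel of these neurons, supplied 67.8% of it at 912, 976, 885 and 657 TPM, and it was lowest in mouse 4. Plxnc1, a semaphorin receptor, averaged 122 ± 14.01 TPM. Mrgprd, the receptor that defines the class, had 10.2, 12.2, 17.2 and 9.91 TPM, and Mrgpra3, a receptor of an itch-sensing class, averaged 0.791 ± 0.534 TPM. The summed peptidergic list exceeded the non-peptidergic list in all 4 libraries, by a ratio of 2.07 ± 0.228. The lists hold different genes, so the ratio is not one of cell numbers.

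For the itch neurons marked by Nppb and Sst, the list was led by Nts (neurotensin, 515 ± 51.2 TPM), with Jak1, a kinase of cytokine receptors, at 145 ± 6.92 TPM. Its defining peptides were low, with Nppb (natriuretic peptide B) at 4.68, 9.78, 4.02 and 9.20 TPM and Sst (somatostatin) at 2.98, 7.42, 6.33 and 6.95 TPM. Il31ra and Osmr, subunits of an itch cytokine receptor, averaged 1.11 and 28.5 TPM. Among genes of C low-threshold mechanoreceptors, which sense gentle touch, Th (tyrosine hydroxylase) had 119.9, 99.3, 159 and 109 TPM, Fam19a4, a secreted chemokine-like protein, had 64.9, 63.03, 67.5 and 51.1 TPM and the vesicular glutamate transporter gene Slc17a8 had 3.46, 4.21, 5.02 and 2.95 TPM. Trpm8, the cold and menthol receptor, had 9.82, 7.64, 8.50 and 13.6 TPM, highest in mouse 4.

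All 18 genes of large myelinated neurons reached 1 TPM and summed to 1639.8 to 1870.1 TPM. Ret, the signalling receptor of the glial cell line-derived factors, had 843, 780.3, 727 and 567 TPM; non-peptidergic nociceptors make it too. Spp1 (osteopontin) had 86.3, 186, 125 and 245 TPM and spread widely. Pvalb, the calcium buffer parvalbumin of proprioceptors, had 16.5, 20.1, 21.7 and 36.6 TPM, and Runx3, the factor that specifies them, averaged 1.73 ± 0.388 TPM.

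Sensory neuron transcription factors summed to 1202, 1146, 1141 and 1218 TPM with 16 of 18 genes detected. Their sum was steadier than its members: the median CV of the detected genes was 13.4%, beside 10.8% for all genes at 1 TPM or more, and 10 of the 16 were highest in mouse 4, as were 48.2% of all genes. Pou4f1, which with Isl1 sets the identity of sensory neurons, had 219.6, 216, 223 and 213 TPM, and Isl1 had 121, 119.98, 118 and 121 TPM. In neither did mouse 4 leave the range of the others by more than the SD of 4 libraries. Prdm12, a factor of the nociceptor lineage, had 117, 107, 121 and 157 TPM and was highest in mouse 4. Tlx3 and Runx1, of the same lineage, averaged 199.97 ± 12.1 and 105 ± 11.95 TPM. Neurog1, a factor of neuron birth in the embryo, stayed between 0 and 0.338 TPM, and Neurod1 averaged 1.42 ± 0.749 TPM.

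Neuropeptide genes were led by the calcitonin gene-related peptides, neurotensin and PACAP. Of 37 genes searched, 20 reached 1 TPM, 10 of these had a mean of over 50 TPM, and the 37 summed to 3368, 3236, 3233 and 2858 TPM. Calca (chr7:114631478-114636357) supplied 26.3% of that sum at 805, 855, 887 and 798 TPM. The gene makes calcitonin and calcitonin gene-related peptide by alternative splicing, and gene counts do not tell these apart. Calcb, which encodes the beta form of the peptide, had 281, 304, 327 and 258 TPM. The ratio of Calca to Calcb was 2.86, 2.82, 2.71 and 3.09 (2.87 ± 0.158), so Calca was higher in 4 of 4 libraries. A two-sided exact sign test on 4 libraries gives at smallest p = 0.13 after rounding, so it cannot reach 0.05. The genes resemble each other, so their counts are uncertain.

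The promoters of 3 of the most abundant peptide genes are printed because each holds TGACG, the core of the cyclic AMP response element, a site bound by CREB and by other leucine zipper factors such as the ATF and AP-1 families. The windows run from 250 bases before to 50 bases after the RefSeq transcript start in build GRCm38.p6, 5′ to 3′ on the gene's own strand, and capitals mark the motif or its reverse complement CGTCA. Calca lies at chr7:114636308-114636607, minus strand, Nts at chr10:102490369-102490668, minus strand and Gal at chr19:3414495-3414794, minus strand.
Calca: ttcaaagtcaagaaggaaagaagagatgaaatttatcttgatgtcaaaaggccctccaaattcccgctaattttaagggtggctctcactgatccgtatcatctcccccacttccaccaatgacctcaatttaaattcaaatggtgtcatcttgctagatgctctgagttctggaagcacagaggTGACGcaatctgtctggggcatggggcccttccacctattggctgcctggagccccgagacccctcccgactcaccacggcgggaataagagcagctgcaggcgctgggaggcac
Nts: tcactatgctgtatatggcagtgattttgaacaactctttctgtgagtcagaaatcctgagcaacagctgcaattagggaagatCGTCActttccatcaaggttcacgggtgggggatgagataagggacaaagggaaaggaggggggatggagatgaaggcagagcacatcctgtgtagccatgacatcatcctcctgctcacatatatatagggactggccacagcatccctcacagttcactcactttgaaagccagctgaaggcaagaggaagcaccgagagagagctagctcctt
Gal: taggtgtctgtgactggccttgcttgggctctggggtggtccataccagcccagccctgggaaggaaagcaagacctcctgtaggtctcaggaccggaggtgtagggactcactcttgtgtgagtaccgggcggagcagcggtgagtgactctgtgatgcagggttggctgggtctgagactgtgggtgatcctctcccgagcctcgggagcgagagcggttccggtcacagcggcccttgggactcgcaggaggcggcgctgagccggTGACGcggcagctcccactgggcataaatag
The motif was chosen with the levels known, and a match is a description of the letters, not of binding. It was found on either strand in the promoters of 8 of 17 neuropeptide genes at 1 TPM or more with a window (47.1%), and in 5 of 13 under 1 TPM (38.5%). Among all genes at 1 TPM or more the share was 34.9%, and among all 27025 genes with a promoter window it was 23.0%.

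Behind Calca, Nts had 527, 539, 553 and 439.7 TPM and Adcyap1, which encodes PACAP, had 609.6, 484, 495 and 434 TPM. Calca exceeded Nts in 4 of 4 libraries and Nts exceeded Adcyap1 in 3, so the order of the 2 lower genes was not fixed. Gal, galanin, a peptide known to be induced by axon injury, had 385, 291, 269 and 136 TPM, highest in mouse 1 and lowest in mouse 4. Cartpt, the precursor of a satiety peptide, had 267, 219.6, 208 and 259.8 TPM. Nmb (neuromedin B, an itch peptide) and Penk (the enkephalin precursor) averaged 148 ± 11.9 and 107 ± 23.6 TPM, with Penk at 71.99 TPM in mouse 4. Ucn (urocortin) averaged 80.5 ± 13.7 TPM. Tac1, the substance P precursor, had 51.2, 51.9, 59.01 and 75.9 TPM, highest in mouse 4. The ratio of Calca to Tac1 was 15.7, 16.5, 15.02 and 10.5.

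Lower in the order, Npy (neuropeptide Y, also known to follow injury) had 28.5, 44.1, 34.3 and 20.4 TPM. Edn1, endothelin, an endothelial peptide, had 14.5, 20.8, 12.7 and 96.6 TPM, and Adm, adrenomedullin, had 3.46, 5.35, 2.64 and 16.01 TPM. Both were highest in mouse 4, the library in which the endothelial list was also highest at 237 TPM. The part of endothelial cells in these 2 values was not tested. Adm2, Pthlh, Crh, Pomc and Gast had means between 1.82 and 14.2 TPM. Another 14 genes were under 1 TPM but had counts, among them Cck (cholecystokinin, 0.566 ± 0.194 TPM), Grp (0.564 ± 0.354 TPM) and Pdyn (the dynorphin precursor, 0.163 ± 0.145 TPM). Vip, another peptide known to follow axon injury, had no count in 4 of 4 libraries, which allows up to 0.252 TPM in the shallowest library. Trh and Iapp had no count either, which allows up to 0.618 and 0.879 TPM.

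The machinery that cuts and packs peptides was abundant, with 16 of 16 genes detected and a sum of 7629, 7528, 7639.7 and 6374 TPM. Cpe, carboxypeptidase E, had 1987, 2053, 1980.1 and 1559 TPM. Vgf, a granin-like secreted protein, had 1630.3, 1559, 1574 and 1246 TPM. Pcsk1n, Scg2, Ptprn and Scg3, proteins of dense-core vesicles and their inhibitors, averaged 904, 802, 778 and 578 TPM. Mouse 4 was lowest for 13 of the 16 on TMM-scaled CPM, where 32.7% of all genes at 1 TPM or more were lowest in it. By TPM, 3 of the 16 were highest in it, among them Scg2 at 885 TPM, beside 48.2% of all genes at 1 TPM or more. The proteases Pcsk1 and Pcsk2, which cut the precursors, averaged 55.3 ± 7.66 and 78.2 ± 4.03 TPM, and Pam, which amidates peptides, averaged 274 ± 7.83 TPM.

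Among the voltage-gated sodium channels, pores of nociceptors were the highest. All 14 genes reached 1 TPM, and they summed to 1148, 1144, 1263 and 1062 TPM. Scn10a (ENSMUSG00000034533, chr9:119608456-119719322), the channel of nociceptors that resists tetrodotoxin, had 311, 334, 311 and 222 TPM and was lowest in mouse 4. Scn9a, the channel whose loss abolishes pain in humans, had 155, 155, 166 and 143 TPM. The ratio of Scn9a to Scn10a was 0.497, 0.464, 0.533 and 0.642, below 1 in all libraries. Scn9a overlaps predicted genes on both strands, so its counts are uncertain.

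The sodium channel beta subunit gene Scn4b had 114, 108, 138 and 121 TPM. Scn7a, an atypical channel also made by non-myelinating Schwann cells, had 79.8, 74.5, 86.6 and 78.04 TPM, and Scn11a, another tetrodotoxin-resistant channel of nociceptors, had 67.4, 77.6, 88.8 and 73.3 TPM. These levels overlapped, and Scn7a was the higher in 2 of 4 libraries. Scn2b and Scn3b averaged 57.1 ± 9.70 and 41.96 ± 7.01 TPM. Scn8a, the channel of nodes of Ranvier, had 22.1, 20.8, 24.4 and 18.1 TPM. Scn1a, a channel of large neurons, Scn2a, a channel of the brain, Scn3a, a channel of embryonic and injured neurons, and Scn4a, the muscle channel, averaged 6.92 ± 1.69, 5.23 ± 0.324, 2.66 ± 0.521 and 1.88 ± 0.352 TPM. A gap lay above them: Scn8a exceeded Scn1a in 4 of 4 libraries, and the lowest Scn8a value was 18.1 TPM against a highest Scn1a value of 8.40 TPM.

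**Figure D3:**
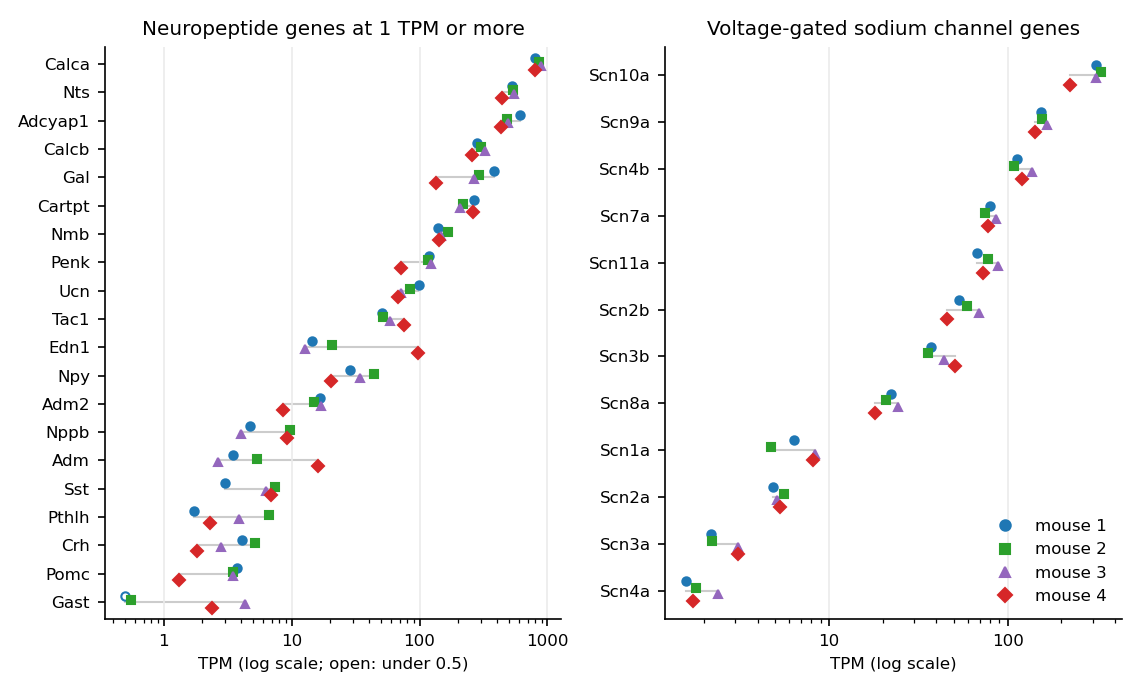
TPM (log scale) of the 20 neuropeptide genes at a mean of 1 TPM or more (left) and of 12 voltage-gated sodium channel genes (right) in each of the 4 untransfected libraries, ordered by mean, 1 point per mouse. Calca tops the peptides in all mice, Gal is lowest and Edn1 highest in mouse 4, and Scn10a is the highest channel shown, with mouse 4 lowest.

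Of 22 TRP channel genes, 13 reached 1 TPM, with a summed level of 285, 267, 269 and 264 TPM. Trpv2, a channel of larger neurons and macrophages, led with 102, 98.8, 106 and 98.5 TPM. Trpv1, the heat and capsaicin receptor, had 85.2, 63.9, 57.3 and 62.8 TPM, highest in mouse 1. Trpa1, the irritant receptor, averaged 13.7 ± 2.50 TPM. Trpm3, a heat sensor, averaged 4.31 ± 0.913 TPM. Trpv1 exceeded Trpm8 in every library, by a ratio of 8.67, 8.36, 6.74 and 4.63.

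Potassium channels and their subunits were the broadest family, with 65 of 92 genes at 1 TPM or more and a sum of 2306, 2197, 2309.9 and 2093 TPM. The beta subunit gene Kcnab2 supplied 25.3% of it at 610.4, 558, 585 and 498 TPM; it overlaps Nphp4 and predicted genes, so its counts are uncertain. Kcnh6, an ERG-type channel, Kcnk12, a silent tandem-pore subunit, and Kcnip3, a calcium-binding subunit, followed at 118 ± 14.2, 117 ± 15.7 and 111 ± 13.7 TPM. Kcnk13, a tandem-pore channel, had 57.6, 57.9, 53.998 and 30.6 TPM, lowest in mouse 4. Kcnk2, a channel gated by stretch and temperature, had 13.3, 8.40, 7.91 and 10.97 TPM. The pacemaker channels Hcn2, Hcn3 and Hcn4 averaged 118 ± 8.78, 90.2 ± 8.37 and 20.2 ± 1.18 TPM, an order kept in all libraries.

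Among calcium channel genes, 19 of 26 reached 1 TPM. The beta subunit gene Cacnb3 led with 298, 277, 289.9 and 280.3 TPM. Cacna2d1, the subunit bound by gabapentin, had 147, 141, 132 and 111 TPM, and Cacna1b, the N-type pore that opens at nociceptor terminals, had 118, 117, 112 and 89.9 TPM. Both were lowest in mouse 4, as were 12 of the 19 on TMM-scaled CPM, where 32.7% of all genes at 1 TPM or more were. Cacna1h, the T-type pore of low-threshold neurons, had 28.4, 17.9, 25.7 and 25.3 TPM.

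Channels gated by ligands, protons or force showed a few leaders each. P2rx3 supplied 92.0% of the summed P2X level, and P2rx2, its partner in some nociceptors, averaged 0.523 ± 0.395 TPM. Asic2 and Asic3, acid-sensing channels, averaged 115 ± 12.9 and 55.6 ± 9.45 TPM, Asic1 averaged 11.1 ± 0.908 TPM, Asic4 stayed at or under 0.209 TPM, and Asic5 had no count. Piezo2, the main channel of touch and limb position, had 98.3, 95.04, 113 and 71.8 TPM, and Piezo1, its relative in vessels and other tissues, had 21.2, 24.2, 21.1 and 30.8 TPM. Piezo2 was lowest and Piezo1 highest in mouse 4. Among GABA-A receptor genes, the subunit gene Gabra2 averaged 31.5 ± 2.43 TPM. Kainate receptor subunits led the glutamate receptors, with Grik1 at 50.3, 56.9, 62.7 and 38.6 TPM, while the AMPA subunit gene Gria2 averaged 1.42 ± 0.228 TPM. Htr3a, the serotonin-gated channel, averaged 64.96 ± 9.50 TPM, and Chrnb2, a nicotinic subunit, averaged 64.4 ± 3.29 TPM. Ano3, a relative of the calcium-gated chloride channels, led its list with 126, 146, 126 and 86.4 TPM, and Ano1, the chloride channel of heat-sensing neurons, averaged 4.61 ± 0.210 TPM. Itpr3 and Itpr1, channels that release calcium from internal stores, had 28.2, 28.6, 26.8 and 42.2 TPM and 3.95, 3.96, 3.72 and 7.05 TPM, both highest in mouse 4.

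Genes of the axon injury response were high in all 4 cultures. The injury-induced transcription factors had 22 of 23 genes at 1 TPM or more, a median of 129 TPM over the list, and a sum of 5559, 5587, 5449 and 5761 TPM. For comparison, the median over all protein-coding genes was 5.08 TPM. That median takes in 3682 genes with no count. Other chosen lists also lay above it, such as genes that restrain growth (48.8 TPM) and heat shock genes (179 TPM). Atf3 (chr1:191170296-191218039), a stress factor that injured sensory neurons are known to switch on, had 1106, 1116, 1118 and 1230.1 TPM, which placed it at rank 63 of all genes. The AP-1 genes Jund and Jun had 836, 796, 779 and 813 TPM and 528, 544, 534 and 554 TPM. Atf4, the factor of the integrated stress response, had 772, 783, 751 and 708 TPM, and its target Ddit3 (CHOP) averaged 262 ± 25.1 TPM. Klf7, Stat3 and Sox11, factors known to promote axon growth, averaged 306 ± 16.98, 259 ± 6.32 and 253 ± 26.2 TPM. Smad1 and Myc averaged 125 ± 5.45 and 77.6 ± 10.8 TPM. These cultures have no intact ganglion beside them in the series, so no induction was measured.

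All 36 growth effector genes reached 1 TPM, and they summed to 27655, 26837, 26486 and 22476 TPM, 2.59% of all TPM. Beside Tubb3 and Tuba1a, the microtubule proteins Map1b (2206, 2201, 2269 and 1534 TPM) and Stmn3 (1859, 1791, 1836 and 1576 TPM) led. Gap43 (chr16:42248442-42340651), the growth cone protein, had 835, 830.5, 786 and 822 TPM, and Stmn2, a tubulin-binding protein of axons, had 809, 814, 808 and 646 TPM. In mouse 4, Gap43 lay inside the range of the other mice and Stmn2 lay below it, and their ratio was 1.03, 1.02, 0.972 and 1.27. Basp1, a relative of Gap43, averaged 895 ± 86.6 TPM, and Dpysl2, which carries tubulin, averaged 950.1 ± 51.7 TPM. Sprr1a, known to be induced in injured neurons, had 364, 365, 333 and 229 TPM, and Gadd45a, likewise, had 445, 431, 425 and 304 TPM. Dcx, doublecortin of young migrating neurons, averaged 2.27 ± 0.345 TPM, and Arg1, an enzyme linked to regeneration, averaged 1.82 ± 0.624 TPM. On TMM-scaled CPM, 27 of the 36 were lowest in mouse 4, against 32.7% of all genes at 1 TPM or more.

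Genes that restrain growth were lower, with 18 of 21 at 1 TPM or more and a sum of 1082, 1073, 1050.01 and 1159 TPM. Klf9, a repressor of axon growth, had 145, 159, 139 and 148 TPM, and Rhoa, which collapses growth cones, had 131, 131, 135 and 153 TPM. Ptprs and Rtn4rl1, receptors for inhibitory proteoglycans and myelin proteins, averaged 118 ± 8.13 and 97.5 ± 5.72 TPM. Socs3, which blunts Stat3, had 79.6, 73.1, 73.9 and 96.6 TPM. The axon guidance genes Dcc and Sema3a stayed at or under 0.213 TPM.

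For trophic factors, receptors were well represented, with 26 of 29 at 1 TPM or more. Behind Ret, Lifr (leukaemia inhibitory factor receptor) had 705, 757, 695 and 597 TPM and Il6st, its signalling partner, had 366, 382, 382 and 345 TPM. Among ligands and cytokines, 30 of 38 reached 1 TPM. Csf1, the macrophage growth factor that injured sensory neurons make, had 317, 346, 314 and 217 TPM and was lowest in mouse 4. Lif had 56.4, 45.3, 46.96 and 71.1 TPM and Bdnf had 26.99, 24.9, 29.8 and 27.8 TPM. Il11 ranged from 15.7 TPM in mouse 1 to 62.9 TPM in mouse 4, and Il6 from 0.266 to 1.97 TPM. Ntf3 and Pspn had no count, which allows up to 0.499 and 1.81 TPM.

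**Figure D4:**
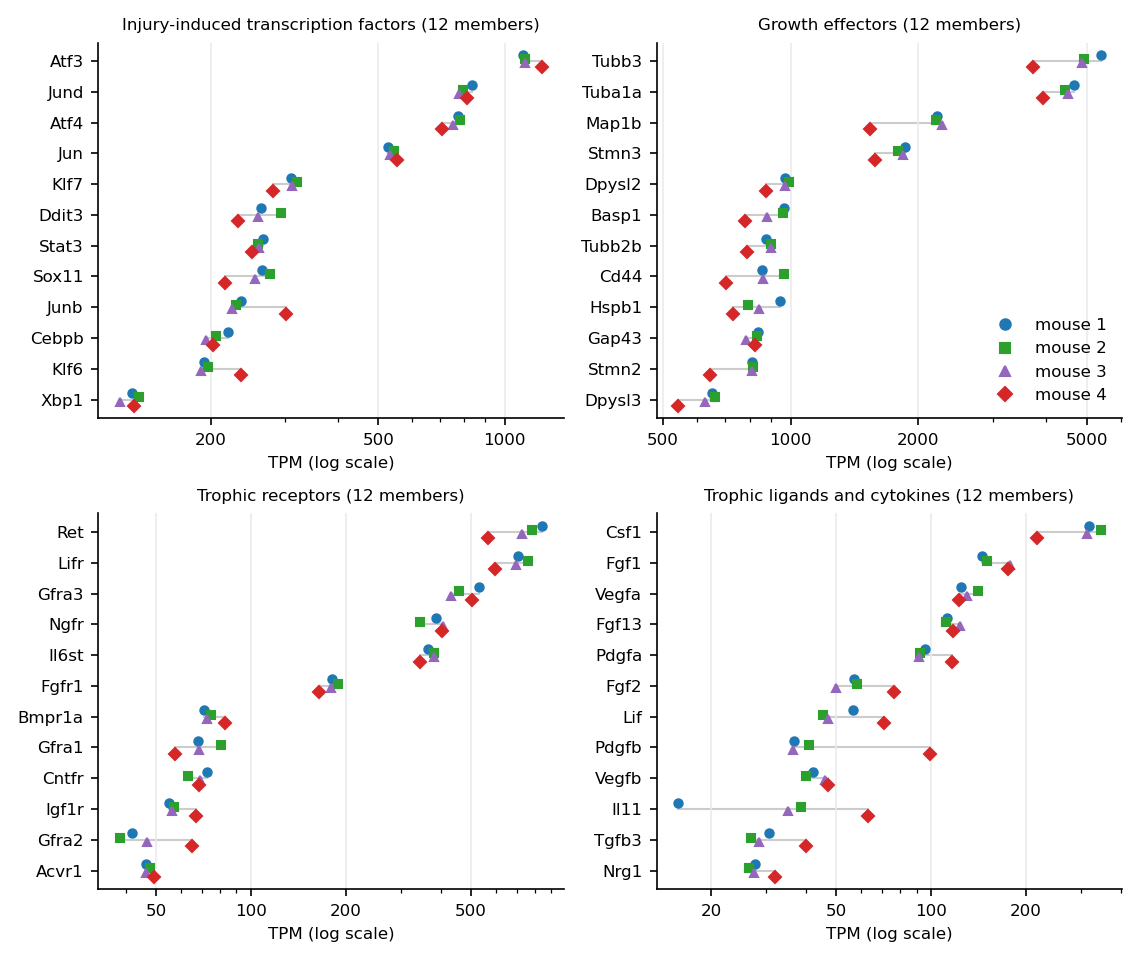
TPM (log scale) of 12 of the highest members of each of 4 growth lists in each of the 4 untransfected libraries, 1 point per mouse: injury-induced transcription factors, growth effectors, trophic receptors, and trophic ligands and cytokines. Atf3 exceeds 1000 TPM in all mice, mouse 4 lies lowest for most effectors, and Pdgfb reaches 99.5 TPM in mouse 4 against 36.4 to 41.0 TPM in mice 1 to 3.

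The state of the cells was read from further lists. Immediate early genes summed to 3949, 3960.2, 3839.9 and 4378 TPM. Beside Atf3 and the Jun genes, the phosphatase gene Dusp1 had 709, 734, 676 and 644 TPM. Fos had 28.8, 25.7, 33.8 and 63.8 TPM and Egr1 had 26.6, 25.96, 28.1 and 83.2 TPM, so these 2 activity genes were well below Atf3, and mouse 4 exceeded the rest. On TMM-scaled CPM, 13 of 19 detected genes were highest in mouse 4, where 34.6% of all genes at 1 TPM or more were. Heat shock genes summed to 7445 to 7867 TPM, and the inducible gene Hspa1b stayed between 11.3 and 27.6 TPM, beside 1066 ± 44.5 TPM for the constitutive gene Hspa8. Interferon-stimulated genes were led by the antigen presentation genes H2-D1 (608 ± 46.5 TPM) and B2m (584 ± 66.95 TPM). The chemokine gene Cxcl10 had 23.03, 17.4, 19.9 and 129.7 TPM. Proliferation genes summed to 171 to 200.2 TPM, with 19 of 21 detected. Mki67, a marker of dividing cells, had 3.38, 6.25, 5.42 and 3.51 TPM and Top2a, which untangles replicated DNA, had 3.08, 4.38, 4.46 and 3.09 TPM.

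Cytosolic ribosomal protein genes summed to 13047, 13539, 13294 and 15419.5 TPM over 84 genes. On TMM-scaled CPM, 56 of the 81 detected were highest in mouse 4, where 34.6% of all genes at 1 TPM or more were. Of the 61 at 10 CPM or more, none exceeded all 3 other libraries by over 1.5-fold in mouse 4, where 1.86% of all genes at that level did. Transcripts of the mitochondrial genome held 1.86%, 1.99%, 2.62% and 1.93% of TPM, highest in mouse 3. Collagen chain genes summed to 1436, 1502, 1302 and 2119.8 TPM. Col4a1 and Col4a2, chains of the basement membrane, had 211, 195, 178 and 426 TPM and 102, 97.4, 86.7 and 253 TPM, and Col5a3, a type V chain, had 129.6, 156, 119.8 and 62.5 TPM, so type IV chains were highest and Col5a3 lowest in mouse 4.

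Between cultures most genes varied little. Spread was measured as the coefficient of variation (CV, SD over mean) of TMM-scaled CPM over the 9341 genes with a mean of at least 10 CPM. The median CV was 7.15%, 70.9% of genes were under 10%, and 94.4% were under 20%. A CV over 50% was found for 32 genes with all 4 libraries and for 2 without mouse 4. The common biological coefficient of variation of edgeR, over 14932 genes, was 11.7% with all libraries and 5.40% without mouse 4. All pairs of libraries differed by more than counting noise, with a chi-square per degree of freedom of 5.69 to 8.80 among mice 1 to 3 and of 20.3 to 25.5 for pairs with mouse 4.

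By the ratio of edgeR's genewise dispersion to its trend, the 10 genes that varied most for their abundance were Cxcl12, Eng, Cd93, Vwf, Cxcl10, Angpt2, Pecam1, Edn1, Ptprb and Cdh5, and all 10 were highest in mouse 4. The ranking takes genes with a mean of at least 10 CPM over all 4 libraries. Cd93, Vwf, Cxcl10, Pecam1, Edn1, Ptprb and Cdh5 reach that mean only through mouse 4. Cxcl12, a chemokine of stromal and endothelial cells, had 11.4, 19.8, 11.7 and 150.5 CPM, with a CV of 141%. Eng (endoglin, a receptor of the vessel wall) had 15.4, 20.1, 12.3 and 90.9 CPM. Cd93, Angpt2 and Ptprb, all genes of endothelial cells, had 48.7, 63.7 and 45.1 CPM in mouse 4, and at most 7.97, 13.98 and 9.50 CPM in the other mice.

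Counted library by library, 174 of the 9341 genes exceeded all 3 other libraries by over 1.5-fold in mouse 4, against 0, 1 and 1 in mice 1, 2 and 3. The minimum mean of 10 CPM is over all 4 libraries, so genes such as Cd93 and Pecam1 enter this count only through mouse 4. In mouse 4, 79 genes lay below all others by the same factor, against 3, 2 and 0. Thbs1 (thrombospondin, a matrix protein) had 159, 153, 135 and 394 CPM and Ccn2, a matricellular growth factor, had 140.2, 141, 148 and 374 CPM, both high in mouse 4. The lowest gene of mouse 4 relative to the rest was Avil, with 1059, 1081, 1059 and 377 CPM, followed by Rgs5, with 111, 90.4, 139 and 38.5 CPM, and Flnc (filamin C), with 382, 375, 334 and 149 CPM. Whether the neuronal, glial and vascular differences of mouse 4 share a source was not tested.

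At the other end, the 10 protein-coding genes with the smallest dispersion for their abundance were Mtg1, Tmem126a, Mrps11, Dhrs7b, Fam122b, Cebpa, Polr2c, Pggt1b, Rars2 and Supt4a. All lay near 10 CPM, with CVs of 1.51% to 2.89%. Canx (calnexin, a chaperone of the endoplasmic reticulum), named after its values were seen for the lowest CV among protein-coding genes with at least 100 TPM, had 398, 398, 396 and 399 CPM, a CV of 0.281%. Counting error alone gives larger CVs at these counts. The genes named here are thus the low end of many, and were not shown to be steadier than others. Pan-neuronal genes had CVs of up to 38.6%, the highest being that of Avil.

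**Figure D5:**
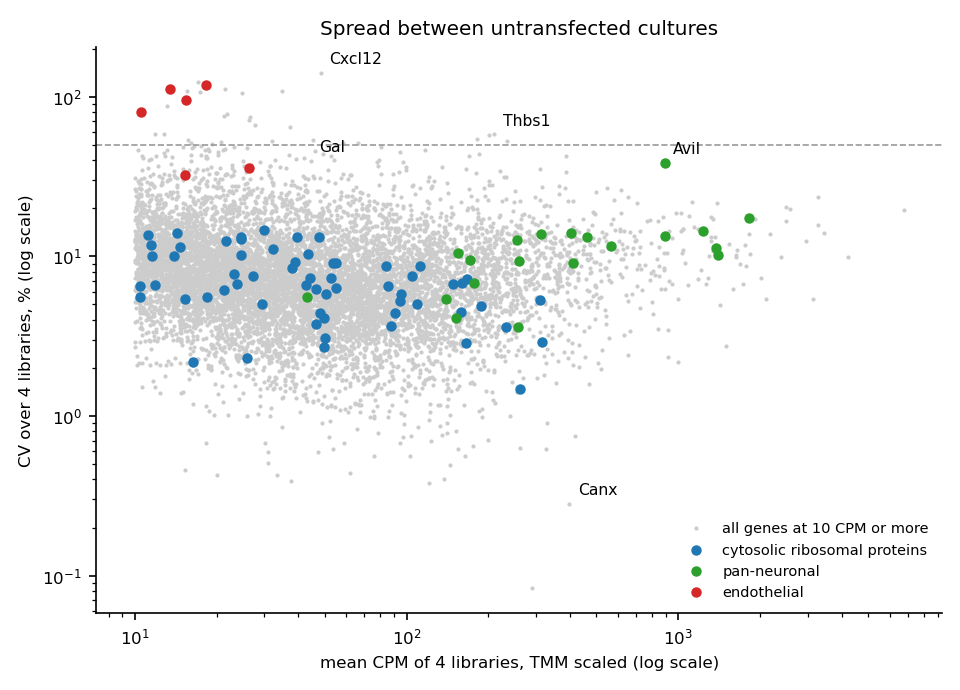
CV of TMM-scaled CPM over the 4 untransfected libraries (vertical axis, log scale) against mean CPM (horizontal axis, log scale) for the 9341 genes with a mean of at least 10 CPM, 1 grey point per gene, with members of 3 lists in colour and a dashed line at 50%. The 4 endothelial genes above the line (Pecam1, Vwf, Cdh5 and Kdr) reach a mean of 10 CPM only through mouse 4, ribosomal protein genes and pan-neuronal genes other than Avil lie below 20%, and Canx lies near the bottom.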

How the data were processed

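RNA sequencing gene counts of 4 untransfected DRG cultures, 1 mouse and 1 library each, were used. The labels' protocols name RNeasy columns for the RNA, the TruSeq Stranded RNA kit for the libraries and paired reads of 150 bases. The authors deposited raw counts of reads per gene, and the submitters' processing notes list bcl2fastq 2.17, STAR, HTSeq, GRCm38 and mm10. Which annotation was counted, and whether strand was used, is not stated in the sources used here. Overlapping genes and paralogs are therefore uncertain.

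Of 48795 gene IDs, 48435 matched a symbol in GENCODE mouse release 21 (GRCm38), which gave lengths and coordinates. The other 360 held at most 0.0286% of any library. TPM was computed from the counts with union exon lengths over 40393 genes of at least 300 bases, outside the 3 ribosomal RNA loci. This total covered 81.2% to 84.0% of each library's counts. It is a level within each library, and against TMM-scaled CPM it sets mouse 4 higher by 4.75% than the mean of the libraries. Detection has a floor: 3 counts of a gene of 2000 bases give 0.323 to 0.428 TPM, and floors cover counting error only. Spread was measured with edgeR 4.0.16 (R 4.3.3) on TMM-scaled counts over 14932 genes passing its default filter, with an intercept only. In data simulated for these libraries with 14932 genes and a spread of 14.1%, edgeR's median trend outside 200 genes made noisier was 15.7%. Of the noisier genes, 139 of 200 ranked among the first 200. The common biological coefficient of variation given above is another statistic, and no simulated library was set apart as mouse 4 was. The simulation therefore does not check that value.

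No test between groups was run, since 1 group is described. The 45 gene lists and their members were chosen with earlier results of these data known, from general knowledge of the tissue. Named genes were the 6 marker genes, the 25 highest by TPM, the 4 highest of each list, all members of short lists, peptides and sodium channels, and the 10 largest and 10 smallest ratios of dispersion to trend among protein-coding genes at 10 CPM or more. Some genes under this rule are not reported here. Other list members, and the promoter motif, were named after their values were seen. Alternatives were other gene lengths and TPM totals, DESeq2 1.42.0, other filters and scaling, and each library left out in turn. Promoter sequences are those of RefSeq.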

Additional observations from a re-analysis of the deposited data

Results flagged for a closer look

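The largest group of values with 1 library far from the other 3 involved mouse 4. The gap of the extreme library to its nearest neighbour, as a share of the range, exceeded Dixon's 95% limit for 4 values, which chance passes in about 1 of 20 groups, for 37 of the 258 list sums and genes examined. Mouse 4 was the library apart in 33 of these and mouse 3 in 4. The genes examined are those named in the text, some of them named for their large spread or after their values were seen, so these counts describe that choice. All gaps are of TPM, on which 48.2% of genes at 1 TPM or more were highest in mouse 4, against 34.6% on TMM-scaled CPM. Over all genes at 1 TPM or more, 1340 (8.28%) passed the limit, and in 943 of them mouse 4 was the library apart, in 138 mouse 1, in 95 mouse 2 and in 164 mouse 3.

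Mouse 4 was high for the endothelial list (a gap of 0.894 of the range) and its members Cdh5 (0.869), Pecam1 (0.924) and Vwf (0.912), and for Eng (0.904), Edn1 (0.903), Cxcl12 (0.941) and Cxcl10 (0.950). It was also high for the matrix and mural genes Col1a2 (0.905), Col4a1 (0.864), Col4a2 (0.906), Thbs1 (0.915), Ccn2 (0.972), Acta2 (0.848) and Myh11 (0.874), and for the myelin genes Prx (0.973), Mbp (0.882) and Cldn19 (0.944). The channels of internal calcium stores were high as a list (0.913) and for Itpr1 (0.928) and Itpr3 (0.886), as were Egr1 (0.963) and Atf3 (0.905). The CV of Atf3 on TMM-scaled CPM was 2.13%.

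Mouse 4 was low for the peptide processing list (0.912) and its member Cpe (0.852). Low values there were also those of the neuronal genes Avil (0.935), Stmn2 (0.966), Syn1 (0.892), Map1b (0.907) and Penk (0.876). The growth effector gene Gadd45a (0.857) and the channel genes Kcnk13 (0.858) and Chrnb2 (0.933) were low in mouse 4 too. Mouse 3 was high for the GABA-A receptor list (0.884), Sncg (0.831), P2rx2 (0.831) and the low-count gene Dpt (0.835).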

How the results depend on the processing

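Of 100 values under the alternatives, 76 moved by less than the SD over 4 libraries, or for counts by less than 1.5 times, and 24 moved by more. Leaving a library out cannot shift a mean over these 4 by as much as that SD. For list sums and ratios those alternatives had to fall within it, so they do not test the values, and the 76 include them. TPM is a share, so the total sets the level. With a total that included the 3 ribosomal RNA loci and genes under 300 bases, the sums were 2964 TPM for pan-neuronal, 256 for Schwann cell and myelin, 169 for satellite glia, 100.4 for fibroblast, 418 for neuropeptide, 152 for sodium channel and 3409 for growth effector genes, and the 100 most abundant genes held 89.1%. With a total over protein-coding genes, chosen after seeing the data, the sums were 26256 TPM for pan-neuronal, 2286 for Schwann cell and myelin, 1494 for satellite glia, 3708 for neuropeptides, 1349 for sodium channels and 30213 for growth effectors, and the share was 18.1%. These totals rescale all genes of a library alike and leave ratios and orders within it as they are. With the longest transcript as length, sodium channels summed to 1052 TPM, the share was 18.8% and the Calca to Calcb ratio was 3.70. The first gene was then the same in 40 of 45 lists and the first 4 genes in 31. Without mitochondrially encoded genes the share was 19.1%.

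Spread rested on mouse 4. The common biological coefficient of variation ranged from 5.40% (without mouse 4) to 13.3% with a library left out, and DESeq2's median was 6.32%. Genes with a CV over 50% numbered 2 without mouse 4 and 54 without mouse 2, and 208 at a mean of at least 1 CPM. The depth limits low genes, for which 1 count moves the value. No paired analysis was possible because only the untransfected group is described.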
